A study of Mus musculus with 9 samples.

Results

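Asns, Gpt2, Cth, Cbs, Got1, Got2, Aldh18a1, Pycr1 and Glul encode enzymes that make non-essential amino acids outside the serine and glycine route. They were taken by symbol from the deposited count table of a study of mouse embryonic stem cells, and 9 of 9 were found among its 23366 named rows. RNA was compared between 3 wild-type (WT) libraries and 3 libraries of cells without the histone deacetylase gene Sirt6 (Sirt6-KO). Both groups were 129 SvJae F1 cells at passage 21, grown with serum, leukaemia inhibitory factor, added glutamine and beta-mercaptoethanol. The labels do not say how Sirt6 was disrupted, whether the knockout line is a single clone, or whether replicates were separate cultures, so p-values measure the spread between libraries, which may be technical. The series also lists 3 libraries of WT cells deprived of glucose, which were not analysed here.

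Aspartate, alanine and glutamate are joined by transamination, in which an amino group moves between an amino acid and a keto acid. Glutamine and asparagine are made by adding an amide group to glutamate and aspartate, proline is made from glutamate, and cysteine takes its sulfur from homocysteine through cystathionine (transsulfuration). Several of these genes are known targets of ATF4, the transcription factor of the integrated stress response, which is translated when amino acids run short. ATF4 binds with C/EBP partners to a composite element with the core TGATGNAA, and the element of the asparagine synthetase promoter is a classic example.

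That core was searched in RefSeq promoters (GRCm38.p6, 250 bases before to 50 after each start), on both strands. Of the 9 genes 8 had an entry; Cth had none. A match lay in 3 of the 8, those of Asns, Pycr1 and Got1, against 3.97% of all 32851 promoters in the table. In Asns it lay 23 to 16 bases before the start, in Pycr1 103 to 96 bases before it, and in Got1 102 to 95 bases before it on the opposite strand. The E-box CACGTG, an unrelated palindrome that does not overlap the core, lay in Cbs and Aldh18a1, against 7.15% of all promoters. The stretches below run 5′ to 3′ on the gene's strand, with the TGATGNAA core (for Got1 its reverse complement) in capitals. Gpt2 and Glul, which have no match in the window, are shown beside them because they fell the furthest among the genes with an entry.
Asns (chr6:7693225-7693324, minus strand): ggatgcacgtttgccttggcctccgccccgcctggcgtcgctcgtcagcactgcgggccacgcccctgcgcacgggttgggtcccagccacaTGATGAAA
Pycr1 (chr11:120643799-120643898, minus strand): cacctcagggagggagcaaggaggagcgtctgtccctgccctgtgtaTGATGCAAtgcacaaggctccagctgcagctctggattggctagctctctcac
Got1 (chr19:43524656-43524755, minus strand): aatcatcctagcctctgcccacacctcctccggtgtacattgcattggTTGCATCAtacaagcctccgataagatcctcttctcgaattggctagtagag
Gpt2 (chr8:85492426-85492525, plus strand): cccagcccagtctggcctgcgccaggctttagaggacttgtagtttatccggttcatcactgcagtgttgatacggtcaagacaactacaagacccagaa
Glul (chr1:153899779-153899878, plus strand): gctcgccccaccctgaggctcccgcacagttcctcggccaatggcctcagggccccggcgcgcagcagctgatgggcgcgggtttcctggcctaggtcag

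The 6 libraries held 20107037 to 29267115 counts, and each of the 9 genes had 398 to 19284 counts in every library. Sirt6 had 341 to 348 counts in WT libraries and 6 to 12 in Sirt6-KO libraries, in the direction of the labels. The knockout libraries differed more from each other than the WT libraries did (chi-square per degree of freedom 20.8 to 87.6 against 3.73 to 11.2 per pair). All 10 embryonic stem cell markers passed the filter on low counts, with a summed level of 6384 to 6970 CPM (counts scaled to library size) in WT and 6561 to 8160 in Sirt6-KO; 3 were higher and 5 lower, and without Dppa5a, the most abundant, the sums were 5258 to 5713 and 5159 to 5477. Among markers of other cells, 11 of 12 primitive endoderm genes were tested, and all 11 were lower in Sirt6-KO. The 12 summed to 599 to 628 CPM in WT against 193 to 247 in Sirt6-KO. Of 13 fibroblast genes 9 were tested, of which 8 were higher and 1, Fn1, lower. Col1a2, Col6a1, Col6a2 and Acta2 had 0 to 8 counts per WT library and passed the filter through their knockout libraries. That favours a rise among the tested genes. Col3a1, Dcn and Postn did not pass the filter, and Lum was at 0 throughout. The sum over the list, 529 to 625 CPM in WT against 325 to 423 in Sirt6-KO, was almost all Fn1, and the other 12 summed to 7.83 to 8.85 against 42.3 to 47.2 CPM. Of 9 trophectoderm genes 6 were tested, of which 4 were higher and 1, Tead4, lower. The 9 summed to 76.9 to 79.5 CPM in WT against 116 to 127 in Sirt6-KO. Cdx2, Elf5 and Gata3 did not pass the filter on low counts. Of all tested genes, 27.9% were higher and 27.8% lower by the test described below. The part of these markers in the results below was not tested, and in bulk RNA fewer cells of a type and less RNA per cell cannot be told apart.

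In cells without Sirt6, the transcripts of 4 of the 9 enzymes fell and 5 did not pass the test; 0 rose. Cth, of cysteine synthesis, fell 3.25-fold, Gpt2, of alanine synthesis, 3.01-fold, and Glul, of glutamine synthesis, 2.65-fold. Got1, the cytosolic aspartate aminotransferase, fell 1.32-fold. All 9 genes passed the filter on low counts. The test was edgeR's quasi-likelihood test with Benjamini-Hochberg adjustment over 14988 genes and a threshold of 0.05. By the same test 27.8% of all genes were lower and 27.9% higher, 55.7% in either direction, so the 4 of 9 called (44.4%) lie near the background. The median log2 fold change was -0.25 over the 9 and 0.01 over all genes. For 7 of the 9 genes the WT and Sirt6-KO values were fully separate, against 63.2% of all genes. Library sizes were scaled by TMM, which trims extreme genes; scaling by total counts instead raises the median of all genes by 0.12 (log2), and then 4 were lower and 2, Got2 and Pycr1, higher.

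**Figure D1:**
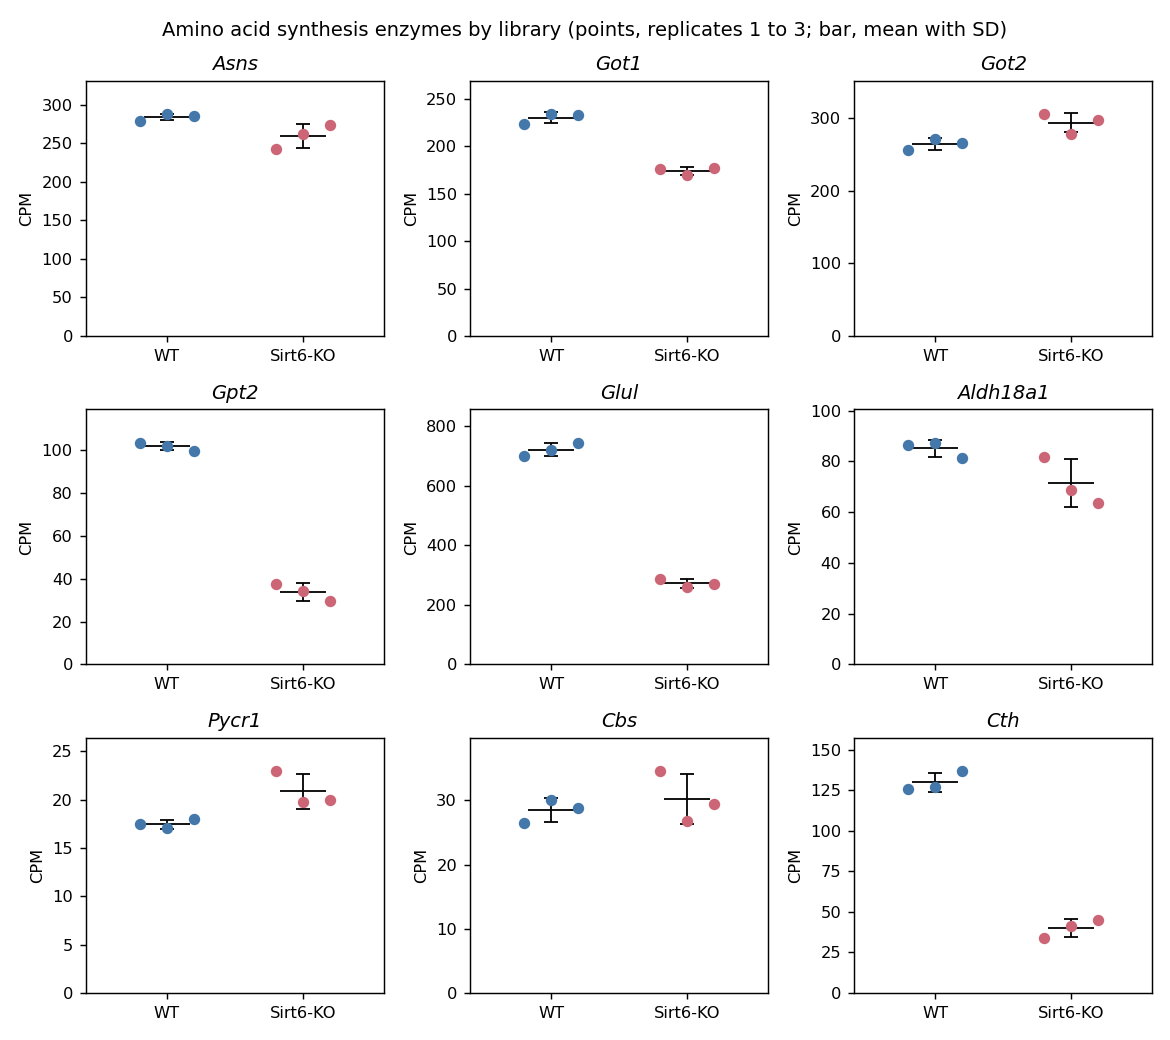
Level of each enzyme transcript (y axis, CPM with TMM-scaled library sizes) in the 3 WT and 3 Sirt6-KO libraries; points are libraries in replicate order and bars the mean with SD. Glul, Gpt2, Cth and Got1 are lower in each Sirt6-KO library than in any WT library, whereas the groups overlap for Cbs and Aldh18a1.

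Asparagine synthetase, encoded by Asns, moves the amide nitrogen of glutamine onto aspartate. Asns stood at 279, 288 and 286 CPM in WT replicates 1 to 3 and at 243, 263 and 274 CPM in Sirt6-KO replicates 1 to 3. Each knockout library lay below each WT library, but by little. Asns did not pass the test, at a log2 fold change of -0.13 ± 0.09 (SE, n = 3 per group; 95% interval -0.34 to 0.08; adjusted p = 0.260, edgeR). With total counts it was -0.01.

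Got1 and Got2 encode the cytosolic and mitochondrial aspartate aminotransferases, which make aspartate from oxaloacetate and carry electrons into mitochondria as part of the malate-aspartate shuttle. Got1 was at 223, 234 and 234 CPM in WT and 176, 169 and 178 CPM in Sirt6-KO. Its groups were well apart and its spread within the knockout was 2.51% of the mean, the smallest of the 9 genes. The log2 fold change was -0.40 ± 0.09 (95% interval -0.60 to -0.20; adjusted p = 0.00284, edgeR). Got2 was at 255, 271 and 266 CPM in WT and 305, 279 and 297 CPM in Sirt6-KO, with no overlap but a narrow gap. Its log2 fold change of 0.15 ± 0.09 did not pass (95% interval -0.05 to 0.36; adjusted p = 0.185, edgeR). It passed with total counts (0.28, adjusted p = 0.0418) and when scaled to its own chromosome (below).

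The mitochondrial alanine aminotransferase encoded by Gpt2 makes alanine from pyruvate and returns 2-oxoglutarate from glutamate. Gpt2 was at 103, 102 and 99.7 CPM in WT and 37.4, 34.3 and 29.5 CPM in Sirt6-KO. The highest knockout library was far below the lowest WT library. Gpt2 fell, at a log2 fold change of -1.59 ± 0.11 (95% interval -1.83 to -1.35; adjusted p = 8.45e-07, edgeR), and 3.55% of all tested genes had a lower value.

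Glul encodes glutamine synthetase, which joins ammonia to glutamate and is the only route of glutamine synthesis in mammals. Its counts were 18822, 17216 and 19284 in WT and 9139, 6338 and 5393 in Sirt6-KO, the highest of the 9 genes in each WT library. As CPM these were 702, 720 and 745 against 288, 260 and 270, with no overlap. Glul fell, at a log2 fold change of -1.41 ± 0.10 (95% interval -1.63 to -1.18; adjusted p = 1.22e-06, edgeR). In the reference annotation Glul overlaps Teddm2 on the opposite strand, and no source used here says whether reads were counted by strand.

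Aldh18a1 encodes the synthase that turns glutamate into pyrroline-5-carboxylate, and Pycr1 a mitochondrial reductase that turns this into proline. Aldh18a1 was at 86.7, 87.4 and 81.4 CPM in WT and 81.8, 68.8 and 63.5 CPM in Sirt6-KO. Knockout replicate 1 lay within the WT range and the other knockout libraries below it. The log2 fold change was -0.25 ± 0.11 (95% interval -0.50 to -0.01; adjusted p = 0.0705, edgeR), and without knockout replicate 1 it passed (-0.36, adjusted p = 0.00179). Pycr1 was at 17.4, 17.0 and 18.0 CPM in WT and 23.0, 19.7 and 19.9 CPM in Sirt6-KO, without overlap. Its log2 fold change of 0.26 ± 0.10 missed the threshold (95% interval 0.03 to 0.49; adjusted p = 0.0555, edgeR), and it passed without knockout replicate 3 (0.27, adjusted p = 0.0412), with DESeq2 size factors (0.0415) and with total counts (0.0191).

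In transsulfuration, cystathionine beta-synthase (Cbs) joins homocysteine to serine and cystathionine gamma-lyase (Cth) splits the product into cysteine. Cbs was at 26.5, 30.1 and 28.9 CPM in WT and 34.5, 26.8 and 29.4 CPM in Sirt6-KO. The groups overlapped, with knockout replicate 1 above the other 5 libraries. The log2 fold change was 0.09 ± 0.12 (95% interval -0.17 to 0.34; adjusted p = 0.536, edgeR), and -0.01 without that replicate. Cth was at 126, 127 and 137 CPM in WT and 34.0, 41.4 and 44.7 CPM in Sirt6-KO, with no overlap. Its log2 fold change of -1.70 ± 0.12 was the furthest from 0 among the 9 genes (95% interval -1.96 to -1.45; adjusted p = 8.83e-07, edgeR), and 2.97% of all tested genes had a lower value. It ranged from -1.59 to -1.81 when single libraries were left out.

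Per kb of exon, which allows levels to be compared between genes, Glul was highest in WT at 259 ± 7.80 CPM per kb (SD, n = 3), ahead of Asns at 132 ± 2.04. Got1 (112 ± 2.94), Got2 (104 ± 3.19), Cth (71.6 ± 3.24), Gpt2 (27.9 ± 0.514) and Aldh18a1 (24.1 ± 0.919) followed in that order. Pycr1 (4.64 ± 0.124) and Cbs (4.55 ± 0.288) were lowest, and they overlapped each other, the only neighbours in the WT order that did. In Sirt6-KO the order began with Asns (120 ± 7.31) and Got2 (116 ± 5.37), which overlapped, with Glul after them at 97.6 ± 5.11. Got1 followed at 84.7 ± 2.12. Cth (22.0 ± 2.99) overlapped Aldh18a1 (20.2 ± 2.67), Gpt2 was at 9.28 ± 1.09, and Pycr1 (5.54 ± 0.479) overlapped Cbs (4.83 ± 0.628). Summed over the 9 genes without division by exon length, the levels came to 1864 ± 39.2 CPM in WT and 1196 ± 31.7 CPM in Sirt6-KO. Glul made up 38.8% ± 0.502 of that sum in WT and 22.8% ± 0.675 in Sirt6-KO. Without Glul the sums were 1141 ± 20.6 and 924 ± 19.4 CPM.

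Ratios between genes within a library do not depend on how libraries are scaled. The ratios below are of CPM per kb of exon. Got2 over Got1 was 0.931, 0.944 and 0.925 in WT and 1.41, 1.34 and 1.36 in Sirt6-KO. Per kb, the mitochondrial transcript lay just below the cytosolic one in each WT library and above it in each knockout library. That WT order rests on the exon lengths used, 2530 bases for Got2 and 2058 for Got1. Before division by length, Got2 was above Got1 in each WT library too (255, 271 and 266 against 223, 234 and 234 CPM). Cth over Cbs was 16.4, 14.6 and 16.3 in WT and 3.40, 5.32 and 5.25 in Sirt6-KO, 3.39-fold lower on the means. Asns over Glul, the enzyme that uses glutamine over the one that makes it, was 0.509 ± 0.0115 in WT and 1.24 ± 0.127 in Sirt6-KO. Pycr1 over Aldh18a1 was 0.193 ± 0.0125 and 0.275 ± 0.0166. Gpt2 over Got2, both on chromosome 8, was 0.268 ± 0.0116 in WT and 0.0800 ± 0.00945 in Sirt6-KO. Gpt2 over Gpt, its cytosolic relative described below, was 11.8 ± 1.81 in WT and 2.10 ± 0.405 in Sirt6-KO. The groups did not overlap in any of these 6 ratios. Among single genes 63.2% were fully separate, and the share over all gene pairs was not computed. Each pair other than Pycr1 and Aldh18a1 holds a gene that passed the test alone, so its separation is not a separate result. The exact two-sided permutation test gave p = 0.1 for each ratio, the smallest that 3 against 3 allows, also after adjustment over the 6.

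**Figure D2:**
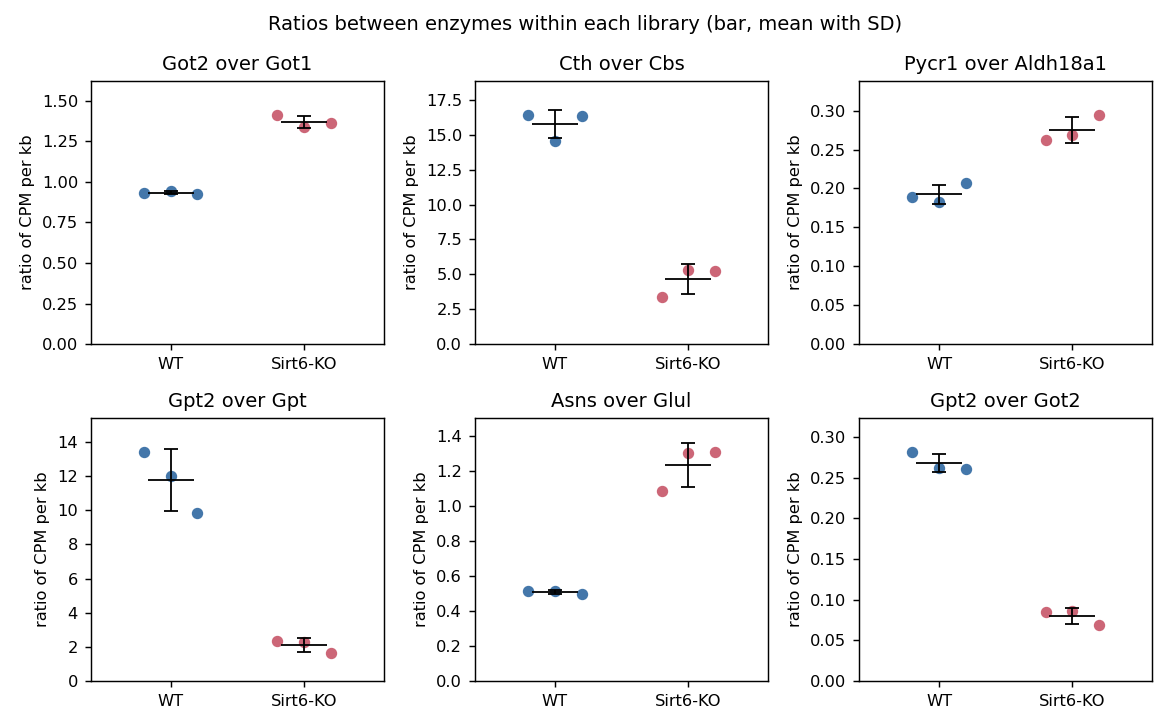
Ratio of CPM per kb between pairs of enzymes (y axis) in each WT and Sirt6-KO library; points are libraries in replicate order and bars the mean with SD. In each of the 6 panels the groups are apart, for example Cth over Cbs at 14.6 to 16.4 in WT and 3.40 to 5.32 in Sirt6-KO.

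Chromosomes 1 and 8, which carry Glul, Gpt2 and Got2, had lower counts in the knockout across many genes. The median log2 fold change was -0.30 over 813 tested genes of chromosome 1 and -0.24 over 788 of chromosome 8, the lowest of all chromosomes. The other enzymes lie on chromosomes with medians of -0.09 (chromosome 19, Got1 and Aldh18a1) to 0.06 (chromosome 3, Cth, and chromosome 6, Asns). Within chromosome 1, 8.37% of genes had a lower value than Glul, and within chromosome 8, 4.19% had a lower value than Gpt2. With TMM factors taken from the genes of the same chromosome, Glul was at -1.09 ± 0.09 (adjusted p = 7.75e-06, edgeR), a 2.14-fold fall. On that scale Gpt2 was at -1.34 ± 0.10 (adjusted p = 2.11e-06), Got1 at -0.31 ± 0.09 (adjusted p = 0.0102) and Cth at -1.72 ± 0.12 (adjusted p = 1.47e-06). Got2 was then called higher, at 0.40 ± 0.09 (adjusted p = 0.00324). Whether the cells differ in copies of these chromosomes was not tested.

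**Figure D3:**
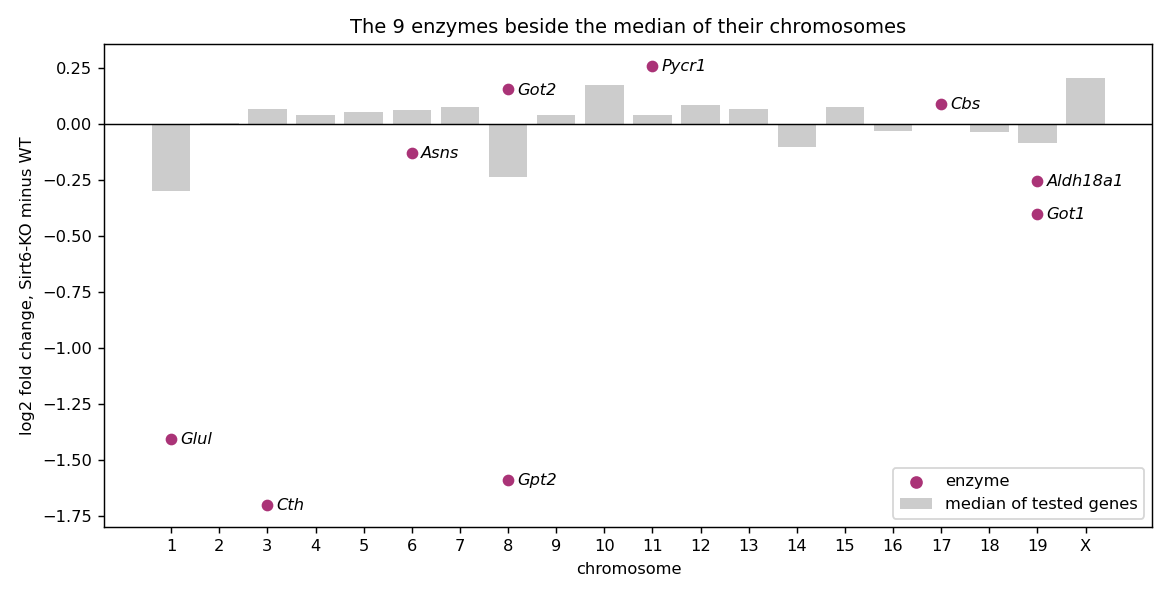
Log2 fold change of each enzyme (points) beside the median over tested genes of each chromosome (grey bars; y axis, Sirt6-KO minus WT; chromosome Y left out, with 6 tested genes). Chromosomes 1 and 8 have the lowest medians, -0.30 and -0.24, and Glul and Gpt2 lie far below them.

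**Figure D4:**
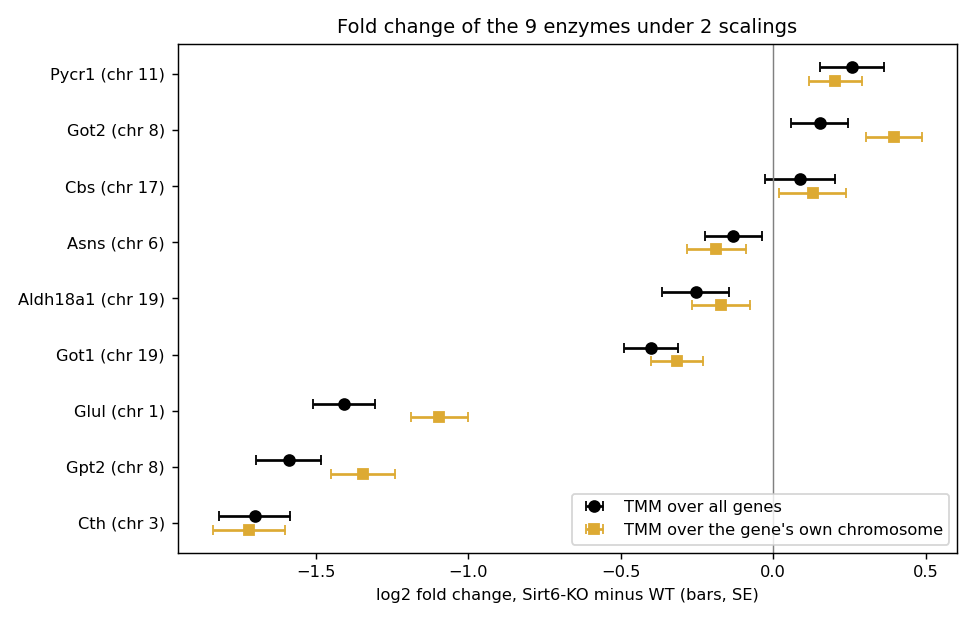
Log2 fold change (x axis, Sirt6-KO minus WT) of the 9 enzymes with TMM factors from all genes (black circles) or from genes of the enzyme's own chromosome (yellow squares); bars are SE. Glul moves from -1.41 to -1.09 and Got2 from 0.15 to 0.40, while Cth is at -1.70 and -1.72.

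In the authors' deposited table the log2 fold changes of the genes called here were -1.68 (Cth), -1.57 (Gpt2), -1.40 (Glul) and -0.40 (Got1). In the authors' deposited table the other 5 genes had adjusted p-values of 0.0772 (Aldh18a1) to 0.613 (Cbs).

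Enzymes of the neighbouring steps moved in both directions. Over 6 lists of related enzymes and carriers, 23 of 71 tested genes were higher and 18 lower in Sirt6-KO, 57.7% called, near the 55.7% of all genes. With total counts 29 were higher and 12 lower. The median log2 fold change was 0.09, against 0.01 over all genes.

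In the aspartate and asparagine route 6 of 15 genes rose and 5 fell, with a median of -0.15. Slc25a11, a carrier of the malate-aspartate shuttle that exchanges 2-oxoglutarate for malate, rose from 57.1 ± 2.33 to 95.0 ± 4.67 CPM, and Slc25a12, which exports aspartate, fell from 50.2 ± 0.938 to 32.6 ± 1.06 CPM. Slc25a13, the other aspartate carrier gene, named after its values were seen, also fell, from 155 ± 7.92 to 123 ± 8.70 CPM (-0.33, adjusted p = 0.0127, edgeR), a call lost with total counts (-0.21, adjusted p = 0.148) and without WT replicate 3 (adjusted p = 0.0659). The argininosuccinate lyase gene Asl rose from 26.6 ± 3.10 to 51.1 ± 4.36 CPM. Adssl1, whose product uses aspartate in purine synthesis, rose from a low level, 1.17 ± 0.160 to 3.43 ± 0.423 CPM. The malate dehydrogenase gene Mdh2 (-0.20, adjusted p = 0.121) and Adss (-0.15, adjusted p = 0.244) did not pass in edgeR; Mdh2 did without knockout replicate 3 (-0.30, adjusted p = 0.0195).

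Among transaminases of alanine, branched-chain amino acids and other substrates 5 of 8 genes in the table were tested, of which 2 rose and 1 fell (median 0.20). Gpt, the cytosolic relative of Gpt2, rose from 4.55 ± 0.646 to 8.43 ± 0.851 CPM, a log2 fold change of 0.89 ± 0.15 (adjusted p = 0.000435, edgeR), and per kb it was below Gpt2 in each library. Ccbl1, a kynurenine and glutamine transaminase gene, rose from 6.53 ± 0.720 to 12.3 ± 1.53 CPM. Bcat1, the cytosolic branched-chain transaminase, fell from 381 ± 4.89 to 254 ± 2.90 CPM. Bcat2 (-0.14) and Ccbl2 (0.20) did not pass. They passed without knockout replicate 3 (Bcat2, -0.23, adjusted p = 0.0392) or without knockout replicate 1 (Ccbl2, 0.32, adjusted p = 0.00743), and Ccbl2 also with total counts (adjusted p = 0.0409).

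Of 13 tested genes that use glutamate or glutamine 2 rose and 3 fell, with a median of -0.19; without knockout replicate 1, 8 were called, and without WT replicate 1, 3 were. Gls2, which encodes an enzyme of the reverse step of Glul, fell from 28.4 ± 2.28 to 18.8 ± 1.58 CPM (log2 fold change -0.59). The CTP synthase gene Ctps2 rose from 22.1 ± 2.47 to 38.2 ± 1.75 CPM. The glutamine transporter gene Slc1a5 (-0.44, adjusted p = 0.0137) lost its call with total counts and without knockout replicate 2 or WT replicate 1 (adjusted p = 0.0973, 0.0653 and 0.0509). The abundant glutamate dehydrogenase gene Glud1 (0.14) and the purine synthesis gene Ppat (-0.21) did not pass, although Ppat did without knockout replicate 1 (adjusted p = 0.0482).

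The proline and ornithine list had the highest median of the 6 lists, 0.79, with 7 of 12 genes higher and 1 lower. Oat, ornithine aminotransferase, which links ornithine to pyrroline-5-carboxylate, rose from 43.4 ± 2.68 to 105 ± 3.81 CPM (1.28 ± 0.09, adjusted p = 1.48e-06, edgeR). Odc1, of polyamine synthesis, rose from 989 ± 41.4 to 1828 ± 78.5 CPM, and P4ha1, which hydroxylates proline in collagen, from 34.3 ± 1.38 to 68.7 ± 5.59 CPM. Prodh2, a hydroxyproline dehydrogenase, went from 0.0253 ± 0.0219 to 0.856 ± 0.153 CPM and stayed low. Pycrl (0.09) and Pepd (0.14) did not pass.

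In the methionine and cysteine list 6 of 18 tested genes rose and 5 fell, with a median of 0.11. Sqrdl, which oxidises sulfide, rose from a low level of 4 to 11 counts per WT library, 0.260 ± 0.144 to 1.30 ± 0.0727 CPM, and Ethe1, a persulfide dioxygenase gene, from 7.57 ± 0.247 to 15.4 ± 2.93 CPM. Gclm, the modifier subunit of the enzyme that starts glutathione synthesis from cysteine, fell from 56.2 ± 1.01 to 34.9 ± 1.78 CPM, while the catalytic subunit gene Gclc (0.05) did not pass. Mat2b (0.03) did not pass. In the serine and one-carbon list 0 of 8 genes rose and 3 fell (median -0.02). These were Mthfd2 (-0.71), Shmt2 (-0.59) and Mthfd1l (-0.56), which encode mitochondrial enzymes. Aldh1l2, a further mitochondrial enzyme gene of the list, named after its values were seen, did not pass (0.26, adjusted p = 0.230, edgeR) but did, as higher, without knockout replicate 3 (0.39, adjusted p = 0.0442). With total counts 5 of the 8 were called, 2 of them higher. Phgdh (0.03) and Psat1 (-0.07), of the serine pathway itself, did not pass.

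**Figure D5:**
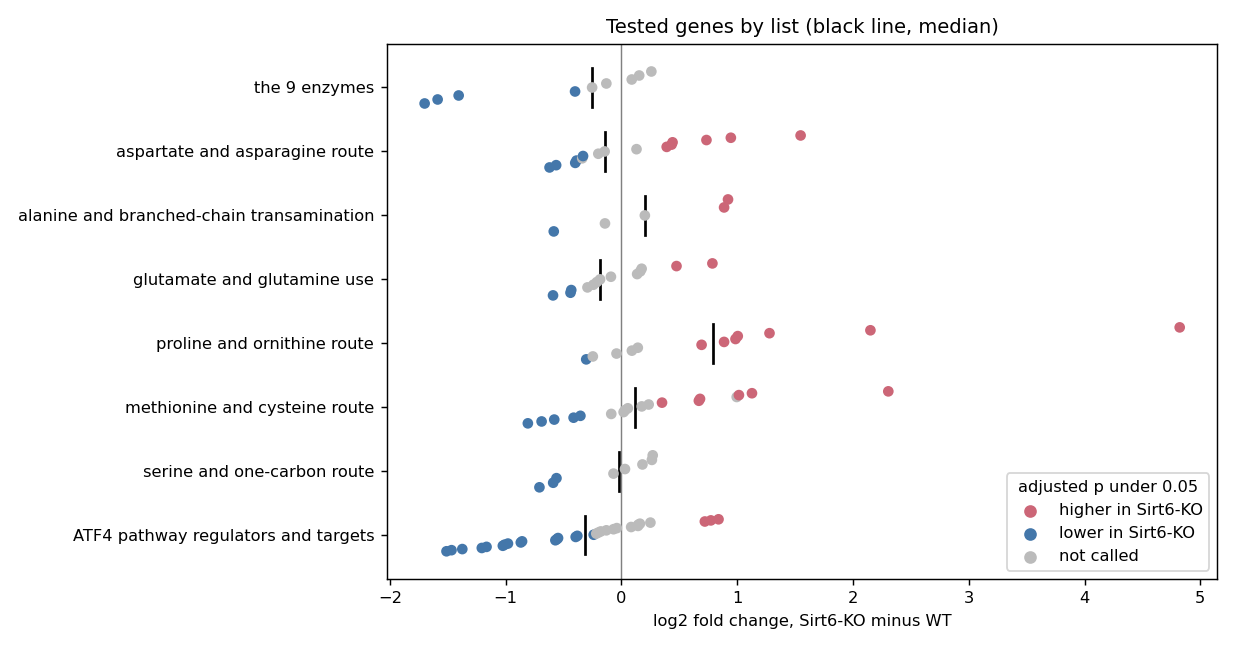
Log2 fold change (x axis, Sirt6-KO minus WT) of each tested gene, by list (rows); red and blue points passed the test as higher or lower, grey points did not, and black lines are medians. The 9 enzymes hold 4 lower genes, and the proline and ornithine list has a median of 0.79.

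Among 30 regulators and targets of the ATF4 pathway 3 were higher and 16 lower, with a median of -0.31 (5 and 12 with total counts). In all 63.3% were called, against 55.7% of all tested genes, of which 27.9% were higher and 27.8% lower. The amino acid transporter genes Slc7a5, Slc3a2 and Slc7a1 fell by 1.47, 1.01 and 1.51 on the log2 scale, and Ppp1r15b, a phosphatase subunit that reverses the stress signal, fell by 1.38. Ppp1r15b lies on chromosome 1 and Slc7a5 on chromosome 8. Atf4 itself, named after its values were seen, was at 301 ± 11.1 CPM in WT and 131 ± 17.2 CPM in Sirt6-KO (-1.21 ± 0.11, adjusted p = 7.46e-06, edgeR). The 3 higher genes of the list, also named after their values were seen, were Ddit3 (0.84), Ndrg1 (0.77) and Cebpb (0.72). The aminoacyl-tRNA synthetase genes Sars (0.14) and Nars (-0.22) did not pass, although Nars did without knockout replicate 1 (-0.20, adjusted p = 0.0497). The other synthetase genes of the list were named after their values were seen. Of these, Aars (-0.56, adjusted p = 0.00210, edgeR) and Gars (-0.24, adjusted p = 0.0478, edgeR) fell, and Wars (-0.20) and Mars (-0.04) did not pass. The 3 enzyme genes with a TGATGNAA core in the promoter window, Asns, Pycr1 and Got1, stood at -0.13, 0.26 and -0.40. Of these 3, Got1 passed the test. The 5 with an entry and no core in that window, Gpt2, Glul, Aldh18a1, Cbs and Got2, stood at -1.59, -1.41, -0.25, 0.09 and 0.15. Of these 5, Gpt2 and Glul passed the test. Cth, at -1.70, had no promoter entry. A link between the core and the changes was not tested.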

How the data were processed

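RNA-seq counts of 3 WT and 3 Sirt6-KO libraries were used, with columns assigned by their names. The deposited table holds raw counts per gene symbol. Per the submitters' processing notes, HTSeq 0.6.1, TopHat2 2.0.10 and DESeq2 were among the tools and mm9 was the build, with no role given; strand handling is not stated. The authors' own comparison is a second deposited table: its columns, per the file headers, are a log2 fold change and its error, raw and adjusted p-values, the Wald score, and a mean signal over libraries.

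Counts were tested by edgeR's two-sided quasi-likelihood test (version 4.0.16, R 4.3.3; glmQLFit, glmQLFTest) with TMM factors after filterByExpr, which left 14988 genes, and called at a Benjamini-Hochberg adjusted p under 0.05. CPM use TMM-scaled library sizes. Each SE was taken as the absolute log2 fold change over the root of its F statistic. Exon length and chromosome came from GENCODE M21 (GRCm38), which is not the authors' build, and promoters from RefSeq.

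The members and lists were chosen with earlier results of these data known. Genes named are Sirt6, the 9 enzymes, up to 4 called genes per list with the smallest adjusted p, up to 2 uncalled genes per list with the highest CPM, and Gpt and Pycrl; the text marks others, and a few listed genes are not reported here. Alternatives were DESeq2 size factors, total counts, own-chromosome factors, no filter, DESeq2 1.42.0, limma-voom (limma 3.58.1), the replicate number as a block, and each replicate left out. Total counts per library ran from 20107037 to 29267115. Every pair of libraries differed by more than sampling noise. Genes with near-identical copies are uncertain, such as Ass1.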

Additional observations from a re-analysis of the deposited data

How the results depend on the processing

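The falls of Cth, Gpt2, Glul and Got1 kept their direction and their call under each alternative run. The count of called enzymes was 4 to 6 over all alternatives, and 4 to 5 when single libraries were left out. That of all called genes was 6986 to 9876 when single libraries were left out. Got2 passed with own-chromosome factors (0.40) and with total counts (0.28). Pycr1 passed with DESeq2 size factors (0.26), total counts (0.38) and the replicate block (0.26). Aldh18a1 passed with the replicate block (-0.26). When single libraries were left out, Aldh18a1 ranged from -0.36 to -0.20, Pycr1 from 0.19 to 0.30, and Cbs from -0.013, without knockout replicate 1, to 0.17. The cause of these shifts was not tested. With the replicate block 6 enzymes were called, 5 lower and 1 higher; same-numbered libraries deviated together at correlations of 0.208, -0.0250 and 0.201, so the numbers are not taken as pairs, although WT replicates 1 and 3 correlated best with their own numbers. With 3 libraries per group, changes near 0.26 (log2) lie at the edge of what the test calls.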

Other observations

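Got1l1, a gene related in sequence to Got1 that lies on chromosome 8, was outside the lists and was picked after its values were seen. It had 86, 94 and 92 counts in WT and 594, 496 and 422 in Sirt6-KO, or 3.56 ± 0.364 and 20.0 ± 1.23 CPM (SD, n = 3). The log2 fold change was 2.49 ± 0.13 (adjusted p = 1.56e-07, edgeR), against -0.40 for Got1 and 0.15 for Got2, and it was higher in 3 of 3 knockout libraries.

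The argininosuccinate synthase gene Ass1, which uses aspartate, fell from 150 ± 6.48 to 114 ± 7.23 CPM. The related row Gm5424 moved the same way, from 11.9 ± 1.35 to 8.75 ± 0.984 CPM, and reads of the pair may not be told apart. Asl, the next enzyme, was higher, as given above. Asnsd1, an asparagine synthetase domain gene on chromosome 1, rose from 123 ± 6.98 to 167 ± 14.7 CPM (0.44 ± 0.10, adjusted p = 0.00347, edgeR), although the median of its chromosome was -0.30. These genes were also chosen after their values were seen.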
